A study of Homo sapiens with 44 samples.

Results

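Mitotic genes were followed in 4 human acute myeloid leukemia (AML) cell lines after RNA interference against the glycogen synthase kinases GSK-3A and GSK-3B. The set held 39 genes, named by a fixed list of symbols. Each was matched to the array's probe sets that carry its symbol alone, and among these the brightest on average across the 44 arrays stood for the gene. This gave values for 38 of the 39 genes among 12165 genes measured. UBE2C, the ubiquitin-conjugating enzyme that works with the anaphase-promoting complex, was not matched to such a probe set and is not analysed here. The study used the lines U937, HL-60, MOLM-14 and THP-1, grown in RPMI 1640 with fetal bovine serum. Each line was infected with a scrambled hairpin (shControl, 3 arrays), with hairpins shGSK3A_5 or shGSK3A_6 against GSK-3A, or with hairpins shGSK3B_1 or shGSK3B_2 against GSK-3B (2 arrays per hairpin). All groups, controls included, carried a hairpin vector and were selected with puromycin at 1 µg/mL starting 48 h after infection, and RNA was taken 48 h later. The labels call the replicates biological and say nothing more about separate cultures or infections, so p-values measure the spread between these arrays. Each line is a single established line and its infected cells were measured as a pool.

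Mitosis is driven by CDK1 bound to cyclin A or cyclin B, which CDC25 phosphatases switch on. Aurora and polo-like kinases build the spindle, the checkpoint kinases hold anaphase until every kinetochore is attached, and the anaphase-promoting complex with CDC20 then destroys cyclin B and securin. The transcripts of these genes peak late in the cell cycle and are low in cells that have left it, which is why their summed level is often read as a sign of cycling. The DREAM complex, and MYB-MuvB with FOXM1, act on their promoters through the cell cycle genes homology region (CHR, TTTGAA) and nearby CCAAT boxes bound by NF-Y.

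Promoter sequences show what many of these genes share apart from their values. RefSeq promoter windows on GRCh38.p14, from 250 bases before to 50 bases after the annotated start, were at hand for 33 of the 39 genes. The letters TTTGAA, or TTCAAA on the other strand, were found in a window of 22 of the 33 genes (66.7%), against 18.2% of 27305 genes with windows. CCAAT or its reverse ATTGG was found in 27 of the 33 (81.8%, against 39.7%), and 17 of the 33 held at least 2 copies (against 12.9% of all genes). GGCGG or CCGCC, the letters of the cell cycle dependent element's core, was found in all 33 and also in 61.5% of all genes. The 100 bases before the start are printed for 5 genes of the central cyclin, kinase and exit machinery with 1 annotated start, and for KIF11 and HMMR, which were picked after their windows had been read. Capitals mark TTTGAA or TTCAAA and CCAAT or ATTGG, all read 5′ to 3′ on the gene's strand.
CCNB2: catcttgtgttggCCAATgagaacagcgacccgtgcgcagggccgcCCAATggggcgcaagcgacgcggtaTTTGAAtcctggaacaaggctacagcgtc
CDC20: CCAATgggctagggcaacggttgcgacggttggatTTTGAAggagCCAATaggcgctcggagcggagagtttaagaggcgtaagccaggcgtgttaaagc
PLK1: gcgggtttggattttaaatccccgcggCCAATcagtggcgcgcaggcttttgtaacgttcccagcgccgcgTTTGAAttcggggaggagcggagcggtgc
KIF11: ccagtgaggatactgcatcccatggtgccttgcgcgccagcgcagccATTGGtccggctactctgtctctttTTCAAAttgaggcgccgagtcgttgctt
HMMR: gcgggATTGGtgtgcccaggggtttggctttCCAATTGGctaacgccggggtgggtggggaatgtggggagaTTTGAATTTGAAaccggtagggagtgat
CCNB1: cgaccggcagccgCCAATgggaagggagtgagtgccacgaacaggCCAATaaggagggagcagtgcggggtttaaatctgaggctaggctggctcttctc
CCNA2: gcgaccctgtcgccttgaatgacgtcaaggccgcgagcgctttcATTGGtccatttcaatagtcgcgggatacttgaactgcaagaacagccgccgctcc
The stretches lie at chr15:59105046-59105145 (plus strand) for CCNB2, chr1:43358881-43358980 (plus strand) for CDC20, chr16:23678789-23678888 (plus strand) for PLK1 and chr10:92593030-92593129 (plus strand) for KIF11. Those of HMMR, CCNB1 and CCNA2 lie at chr5:163460532-163460631 (plus strand), chr5:69167050-69167149 (plus strand) and chr4:121823884-121823983 (minus strand). CCNB2 and PLK1 have TTTGAA 29 bases before the start, KIF11 has TTCAAA 28 bases before it, and HMMR carries a pair of abutting TTTGAA. CCNB1 and CCNA2 have neither spelling in the whole window, which says only that these letters are not there. A match of letters is no measure of binding.

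Depth and quality were checked on the same arrays. Deposited array medians ran from 19.0 to 22.9 in linear intensity. GSK3B intensity with its own hairpins fell to 18.3% of control in MOLM-14, 25.8% in HL-60, 27.3% in U937 and 45.5% in THP-1. GSK3A intensity with its own hairpins stood at 97.0%, 83.0%, 91.9% and 97.1% of control in the same order, and only the HL-60 change passed the test (-0.21 ± 0.051 on the log2 scale, limma adjusted p = 0.00388). Against the GSK-3B hairpins the GSK3A probe set was lower in HL-60 (-0.13 ± 0.047, adjusted p = 0.0447) and in MOLM-14 (-0.13 ± 0.047, adjusted p = 0.0331). In MOLM-14 the GSK-3B hairpins themselves changed it by 0.098 ± 0.051 against control (adjusted p = 0.324). Over the 4 lines it was lower than control with the GSK-3A hairpins (-0.098 ± 0.025, adjusted p = 0.00381). In MOLM-14 against control the GSK-3A hairpins changed it by -0.036 ± 0.051 (adjusted p = 0.712). Hairpin 5 gave -0.0018 ± 0.061 and hairpin 6 gave -0.070 ± 0.061 there. The probe set thus checks that label weakly, and the protein blots that the labels mention are not used here. Directions given for GSK-3A hairpins rest on those labels. As a check of cell identity, 7 to 12 of 14 myeloid markers lay above 2 times the array median in each line and target group, among them CEBPA, PTPRC and TYROBP in all, while SPI1 was below it in all. Of 7 B cell markers none lay above it, of 12 T and NK cell markers 1 or 2 (NKG7, NCAM1), of 10 erythroid and megakaryocyte markers at most 1 (EPOR, in HL-60), and of 12 epithelial and stromal markers 2 or 3 (VIM and PECAM1 in all groups, KRT18 in MOLM-14).

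The arrays of a line sat in 1 plate row, so line and row cannot be told apart. Within a row, the mitotic genes also moved with the plate column. In U937 all 38 were lower in plate columns 7 to 11 than in columns 1 to 6 (median -0.64 on the log2 scale, against 17.2% of all genes), and in MOLM-14 25 were higher (median 0.28, against 20.3%). In HL-60 and THP-1 none passed the limma test, against 0% and 0% of all genes higher after adjustment. At an unadjusted p under 0.05 there were 0 members in HL-60 and 1 in THP-1. The ratio of the 3′ to the 5′ GAPDH probe set, a sign of RNA quality, was 0.962 to 1.00 on the MOLM-14 arrays of columns 1 to 6 and 1.70 to 3.23 on those of columns 7 to 11. Its part in the plate difference was not tested. Replicate 1 of every hairpin lay in columns 1 to 6 and replicate 2 in columns 7 to 11, and the last control replicate lay in column 7. A difference between the column sets thus cannot be told apart from one between replicates. Every hairpin had 1 array in each set of columns, and every line had 2 control arrays in the first set and 1 in the second. The fit therefore held the column set as a block within each line, and values within each set are given beside the results they touch.

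All 38 mitotic genes were lower in MOLM-14 with the GSK-3A hairpins than with the scrambled hairpin. The median change was -0.98 on the log2 scale, where each value is log2(intensity + 16), and single genes ran from -1.60 (CDKN3) to -0.28 (CDC25B). Each of the 38 passed the test, limma with Benjamini-Hochberg adjustment over all 12165 genes at 0.05, against 13.3% of all genes lower and 14.5% higher. The median over all genes was 0.0038. Fewer dividing cells and less transcript in each cell cannot be told apart in bulk RNA. With the GSK-3B hairpins in the same line none of the 38 passed (8 had an unadjusted p under 0.05, all lower). The other 3 lines did not show the drop. With the GSK-3A hairpins 15 of 38 rose in HL-60, against 9.45% of all genes. In THP-1 5 rose and 1 fell (3.86% and 3.61% of all genes). In U937 2 rose, a share no higher than the 8.11% of all genes.

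**Figure D1:**
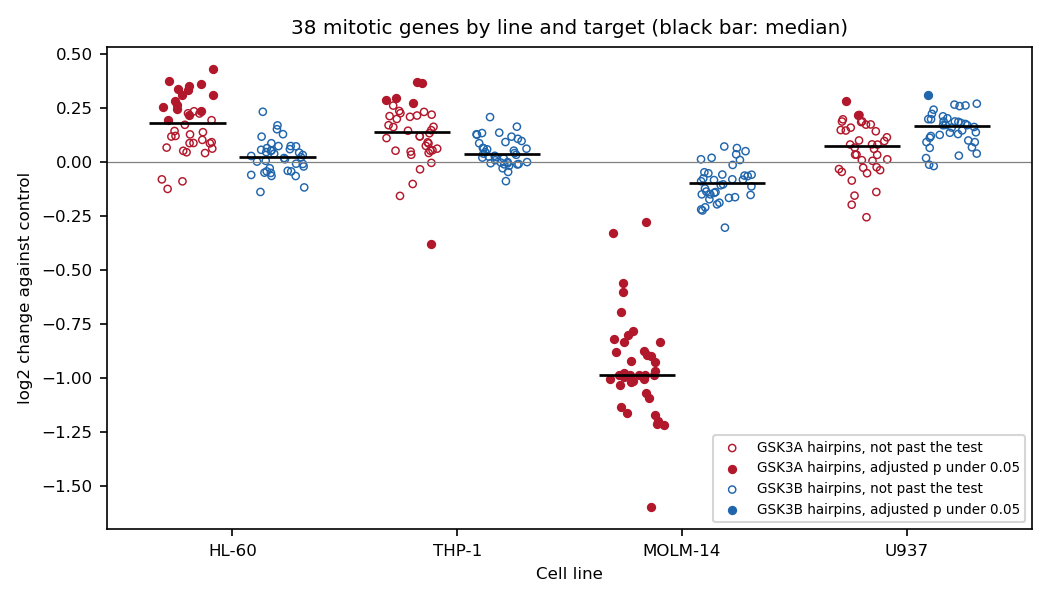
Change of each of the 38 mitotic genes (points, log2 scale) against the scrambled control of the same line, for GSK-3A hairpins in red and GSK-3B hairpins in blue; filled points passed the limma test at an adjusted p of 0.05 and black bars are medians. The MOLM-14 points with GSK-3A hairpins lie between -1.60 and -0.28, and only CDC25B and PLK1 among them lie above the -0.38 of CDKN3 in THP-1, the lowest point outside that group.

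Arrays did not overlap for most members. In MOLM-14 all 4 GSK-3A arrays lay below all 3 control arrays for 35 of 38 genes, against 8.02% of all genes. Hairpin 5 alone lay below the controls for all 38, against 18.2% of all genes, and hairpin 6 for 35, against 15.9%. The fall was present in both sets of plate columns: all 38 changes were negative in each, with medians of -1.03 in columns 1 to 6 and -0.84 in columns 7 to 11. In columns 1 to 6 the GAPDH ratio was close to 1 on every MOLM-14 array.

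Among cyclins, CDK1 and their regulators all 7 genes fell. CDK1 measured 1112, 1027 and 853 on the control arrays, 265 and 309 with hairpin 5 and 621 and 611 with hairpin 6. All 4 hairpin arrays of this catalytic kinase of mitotic entry lay below the 3 controls, hairpin 5 furthest, and the change was -1.20 ± 0.075 on the log2 scale (adjusted p = 1.89e-11). Its cyclin partners moved with it: CCNA2, cyclin A2 of S phase and mitotic entry, changed by -1.07 ± 0.089, CCNB1 by -0.83 ± 0.068 and CCNB2 by -0.93 ± 0.062. For CCNB2 the controls were nearly equal at 480.4, 477 and 482, against 175 and 207 with hairpin 5 and 292 and 365 with hairpin 6. CDKN3, a phosphatase that acts on cyclin-dependent kinases, had the greatest change of the 38 genes, -1.60 ± 0.096 on the log2 scale (adjusted p = 1.18e-11). Its controls read 310.0, 299 and 332, hairpin 5 gave 74.9 and 86.4 and hairpin 6 gave 114 and 109.7, so that both hairpins were far below the controls.

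The CDC25 phosphatases, which remove the inhibitory phosphates of CDK1, changed less. CDC25B measured 172, 153 and 193 on the control arrays, 97.1 and 132 with hairpin 5 and 156 and 217 with hairpin 6. Hairpin 5 lay below the controls while hairpin 6 lay within and above their range, and the mean change was -0.28 ± 0.082 on the log2 scale (adjusted p = 0.011). CDC25C, a dim probe set here, read 44.1, 38.1 and 50.5 on the controls, 19.9 and 21.5 with hairpin 5 and 25.5 and 38.95 with hairpin 6. Of its hairpin 6 arrays 1 exceeded the lowest control, and the change was -0.56 ± 0.079 on the log2 scale (adjusted p = 4.71e-06).

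The mitotic kinases and their partners fell in all 6 members, from -1.17 for NEK2, which parts the centrosomes, to -0.33 for PLK1. NEK2 stood at 189, 179.9 and 213 in the controls, 43.97 and 61.7 with hairpin 5 and 115 and 126 with hairpin 6, without overlap (adjusted p = 9.66e-11). AURKB, the Aurora kinase of the chromosomal passenger complex, stood at 104, 107 and 104 in the controls, 32.4 and 35.7 with hairpin 5 and 56.9 and 69.6 with hairpin 6 (adjusted p = 1.07e-09). Its survivin partner BIRC5 changed alike, -0.99 ± 0.082 against -0.97 ± 0.079 for AURKB. AURKA, the centrosomal Aurora kinase, changed by -0.69 ± 0.053, and TPX2, which activates it on the spindle, by -0.99 ± 0.074. PLK1, the polo-like kinase, is dim, with 25.4, 24.2 and 27.5 in the controls, 13.0 and 17.8 with hairpin 5 and 17.6 and 23.4 with hairpin 6. These 4 arrays still lay below the 3 controls, and the change was -0.33 ± 0.088 on the log2 scale (adjusted p = 0.00551).

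**Figure D2:**
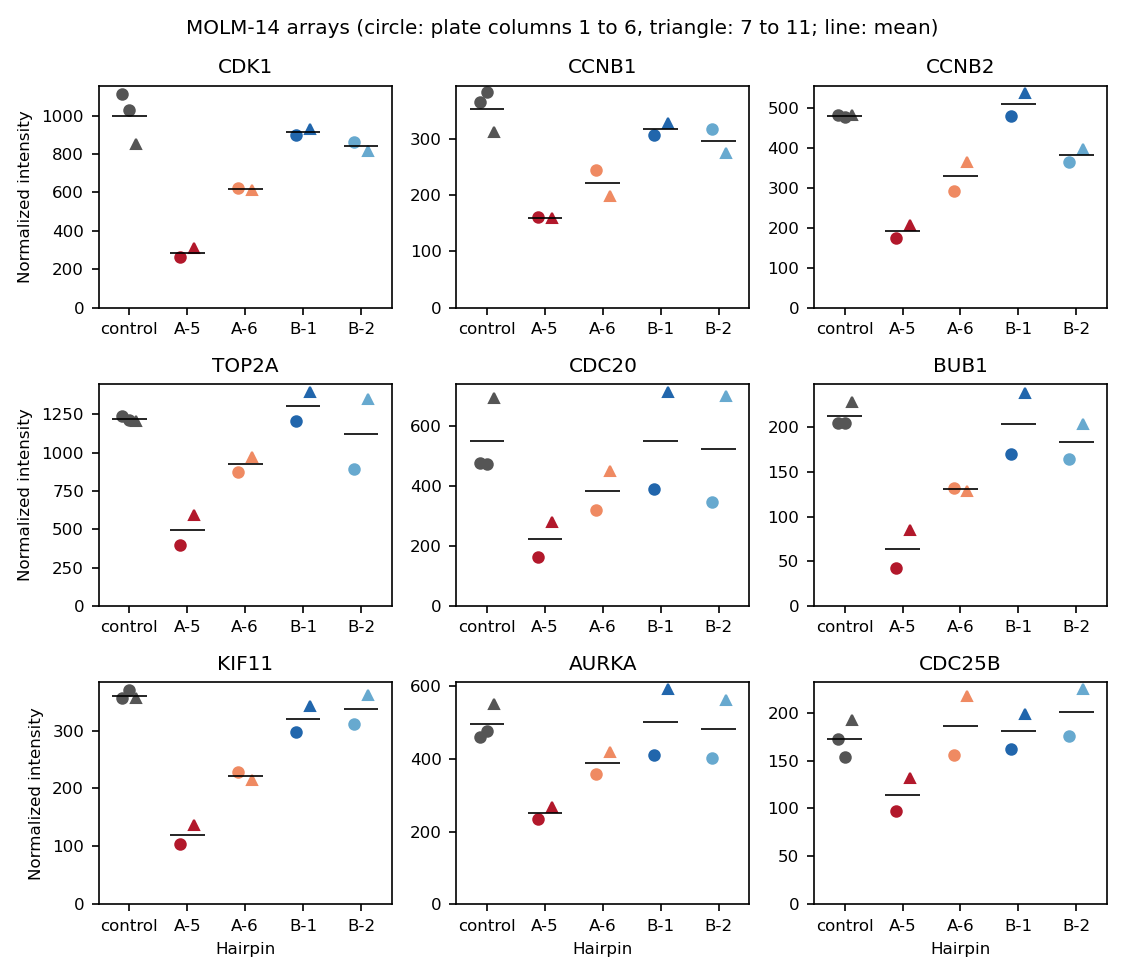
Normalized intensity (linear, from 0) on each MOLM-14 array for 9 mitotic genes, by hairpin (A for GSK-3A, B for GSK-3B); circles are plate columns 1 to 6, triangles columns 7 to 11, and lines are means. For CDK1 the hairpin 5 arrays read 265 and 309 against 1112, 1027 and 853 on the controls, while the CDC25B arrays of hairpin 6 overlap the controls.

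Checkpoint and kinetochore genes, whose proteins sense unattached chromosomes, fell in all 10 members, from -1.16 for BUB1 to -0.83 for ZWINT. BUB1 measured 204, 205 and 229 on the control arrays, 42.1 and 85.2 with hairpin 5 and 132 and 128 with hairpin 6. This checkpoint kinase changed by -1.16 ± 0.096 on the log2 scale (adjusted p = 1.17e-09), and the 4 hairpin arrays lay far below the controls. MAD2L1, which binds and holds CDC20, read 527, 508 and 495 in the controls, 208 and 256 with hairpin 5 and 323 and 277 with hairpin 6 (-0.92 ± 0.086, adjusted p = 8.67e-09). CENPF, a large kinetochore protein, read 728, 707 and 698 in the controls, 197 and 280.4 with hairpin 5 and 489.7 and 604 with hairpin 6 (-1.01 ± 0.086, adjusted p = 1.97e-09). All arrays of both genes lay below the controls, and CENPF divided the hairpins more than MAD2L1 did. The kinase TTK (MPS1), which starts checkpoint signalling, changed by -1.03 ± 0.083, BUB1B (BubR1), an inhibitor of CDC20, by -0.89 ± 0.082, and CENPA, the centromeric histone H3 variant, by -1.01 ± 0.076. CENPE, a kinetochore motor, SPAG5, a spindle protein, and NDC80, the microtubule coupler of the outer kinetochore, changed by -0.88, -1.02 and -1.002.

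Motors, spindle and cytokinesis genes fell in all 11 members, from -1.22 for DLGAP5, a spindle fibre protein, to -0.60 for TACC3, which stabilizes spindle fibres. KIF11 (Eg5), the motor that pushes the spindle poles apart, read 356, 370.0 and 356 on the control arrays, 104 and 136 with hairpin 5 and 228 and 215 with hairpin 6. The change was -1.09 ± 0.076 on the log2 scale (adjusted p = 9.25e-11), with all hairpin arrays below the controls. KIF20A, a motor of the central spindle, read 199.6, 195 and 229.5 in the controls, 48.7 and 74.8 with hairpin 5 and 164 and 163 with hairpin 6, the latter only a little below the controls (-0.99 ± 0.081, adjusted p = 1.14e-09). KIF23, the motor of the centralspindlin complex, read 86.6, 90.1 and 97.4 in the controls, 35.0 and 56.4 with hairpin 5 and 51.8 and 49.3 with hairpin 6, here with similar hairpins (-0.78 ± 0.11, adjusted p = 7.45e-06). KIF2C (MCAK), which takes microtubules apart at centromeres, changed by -1.21 ± 0.075, and HMMR, a spindle assembly factor, by -1.13 ± 0.072. The midzone bundler PRC1 changed by -0.98 ± 0.076, and RACGAP1, the partner of KIF23, by -0.80 ± 0.077. For TACC3, with 208, 221 and 298 in the controls, 1 hairpin 6 array (177 and 236) lay inside the control range. KIF4A, a chromosome motor, and NUSAP1, a spindle microtubule protein, changed by -0.88 and -0.99.

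Genes of mitotic exit and chromosome separation fell in all 4 measured members. CDC20 measured 477, 473 and 693 on the control arrays, 163 and 279.7 with hairpin 5 and 320.3 and 448 with hairpin 6. CDC20 aims the anaphase-promoting complex at cyclin B and securin, and it changed by -0.997 ± 0.085 on the log2 scale (adjusted p = 1.95e-09). Its column 7 control array was higher than the other controls, and each hairpin array of columns 7 to 11 was higher than its partner of columns 1 to 6. TOP2A, the topoisomerase that untangles sister chromatids, read 1241, 1212 and 1209.7 in the controls, 397 and 592 with hairpin 5 and 876 and 975 with hairpin 6 (-0.90 ± 0.098, adjusted p = 1.17e-07). PTTG1 (securin), which holds separase in check, changed by -0.82 ± 0.087, and ESPL1, separase itself, by -0.98 ± 0.087. For each of these 4 genes all hairpin arrays stayed below the 3 controls.

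Set beside the promoter letters, the median MOLM-14 change was -0.98 over 22 genes with the letters and -0.97 over 11 without them. CCNB1 and CCNA2, printed above without them, changed by -0.83 and -1.07, and CCNB2 and CDC20, printed with them, by -0.93 and -0.997. These values are a description, with no test.

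Both GSK-3A hairpins moved the genes down in MOLM-14, by unequal amounts. Hairpin 5 lowered all 38 (median -1.35 against control, 13.6% of all genes lower), and hairpin 6 lowered 36 (median -0.61, 10.8% of all genes), with CDC25B and PLK1 not past the test. As ratios of intensity + 16, the quantity fitted, the medians stand for 39.1% and 65.3% of control. Ratios of intensity alone are lower for genes that fell, most of all for dim ones. Hairpin 5 brought 32 genes below -1 on the log2 scale and hairpin 6 brought 1, CDKN3. The direct comparison of the hairpins put hairpin 5 below hairpin 6 for all 38 genes and past the test for 36 (median -0.75, against 11.1% of all genes). The calls of hairpin 6 and of the difference depended on the column block. Without it hairpin 6 lowered 6 members past the test (4.76% of all genes) and the difference passed for 16 (4.64%), and with the MOLM-14 arrays fitted alone without it these were 11 and 12 (2.27% and 2.13%). Without the block 37 of the 38 hairpin 6 changes and all 38 differences were negative.

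The gap between the hairpins was widest for KIF20A (-1.23 ± 0.11, adjusted p = 4.25e-09) and CENPF (-1.15 ± 0.11, adjusted p = 3.09e-08). For CDK1 hairpin 5 minus hairpin 6 was -1.06 ± 0.098 on the log2 scale (adjusted p = 1.32e-08). The gap did not pass for KIF23, where the difference was -0.13 with a 95% interval of -0.44 to 0.17, or for PLK1, at -0.22 with an interval of -0.45 to 0.019. CDKN3, the gene lowered most by hairpin 6 (-1.39 ± 0.11), differed between hairpins by -0.41 ± 0.13 on the log2 scale (adjusted p = 0.0194). For the GSK3A transcript hairpin 5 minus hairpin 6 was 0.069 ± 0.066 in this line (adjusted p = 0.571).

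**Figure D3:**
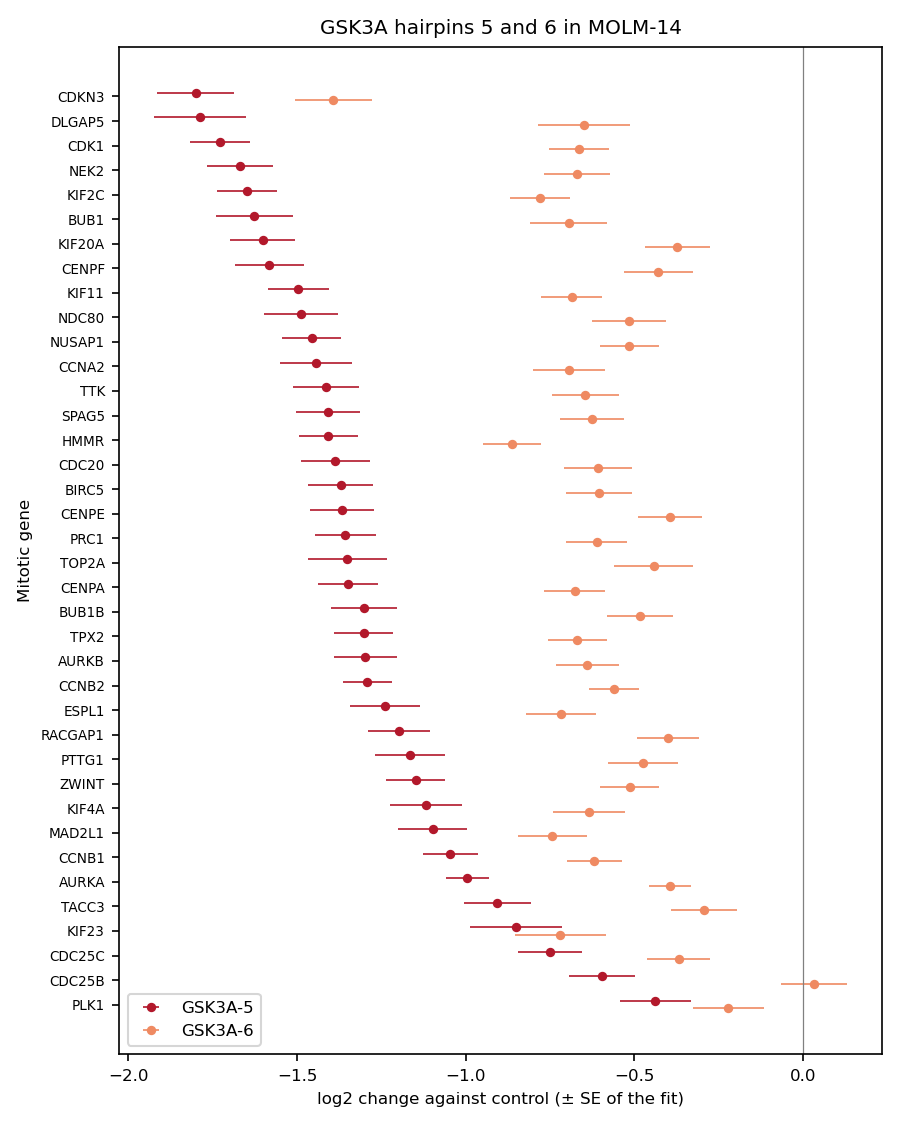
Change of each mitotic gene in MOLM-14 with GSK-3A hairpin 5 (dark red) and hairpin 6 (orange) against control, on the log2 scale, with the standard error of the fit as bars; genes are ordered by the hairpin 5 change. Hairpin 5 lies to the left of hairpin 6 in every row, with CDKN3 lowest for both and CDC25B at 0.035 with hairpin 6.

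The GSK-3B hairpins left no member past the test in MOLM-14 (adjusted over all genes, 2.99% of all genes lower), where GSK3B itself stood at 18.3% of control. The median over the 38 genes was -0.097 on the log2 scale, and the fit allowed changes of -0.32 to -0.011 for CDK1, -0.31 to 0.0079 for KIF11 and -0.28 to 0.13 for TOP2A (95% intervals). The array values were 901, 929, 865 and 814 for CDK1 and 298, 343, 312 and 362 for KIF11, near or in the control ranges given above. The medians were -0.21 in plate columns 1 to 6 and 0.07 in columns 7 to 11, so their sign differed between the column sets. In columns 1 to 6 alone, 11 members passed the test, all lower, against 2.54% of all genes. Without control replicate 3, which lies in column 7, 4 passed, without GSK-3B hairpin 2 replicate 2 2 did and without GSK-3B hairpin 1 replicate 2 1 did. Hairpin 1 alone lowered CCNA2 (-0.36 ± 0.11, against 3.28% of all genes), and hairpin 2 lowered CCNB2, CENPA and DLGAP5 (against 4.64%), by -0.35, -0.34 and -0.44. Set directly against the GSK-3B hairpins, the GSK-3A hairpins were lower for all 38 genes in MOLM-14 (median -0.85, against 14.2% of all genes). The medians of that comparison were -0.82 and -0.90 in the 2 column sets.

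The size of the GSK-3A change differed between the lines for nearly every member. An F-test of the interaction passed for 37 of 38 genes, against 24.9% of all genes. The same test of the GSK-3B change passed for none, against 1.3% of all genes after adjustment (13 members had an unadjusted p under 0.05). PLK1 was the exception (adjusted p = 0.0923). The MOLM-14 change was also set against the mean change of the other lines. This contrast was chosen with an earlier result known, that cell cycle genes moved mostly in MOLM-14, so its count is no independent support. In it 37 genes were lower in MOLM-14 (median -1.10, against 7.82% of all genes), again all but PLK1 (-0.27 ± 0.10, adjusted p = 0.0686). The difference was -1.41 ± 0.095 for NEK2, -1.40 ± 0.13 for DLGAP5, -1.38 ± 0.087 for CDK1 and -0.55 ± 0.095 for CDC25B. For the GSK-3B change none of the 38 differed in that contrast, where 0.378% of all genes passed as lower after adjustment, and 3 did without MOLM-14 control replicate 3. Before adjustment 18 of the 38 had a p under 0.05, all lower in MOLM-14, a count with no share of all genes to set beside it.

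Without the MOLM-14 arrays, no member's GSK-3A change differed between the remaining lines by the limma F-test, against 15.5% of all genes after adjustment (5 members had an unadjusted p under 0.05). Averaged over all 4 lines, 25 members were lower and 1, CDC25B, was higher with the GSK-3A hairpins (median -0.14, against 16.7% and 16.5% of all genes). That average rested on MOLM-14: without this line 22 members were higher and 2 lower, against 13.6% and 13.7% of all genes. With the GSK-3B hairpins none passed over the lines, against 5.46% of all genes higher after adjustment (6 members had an unadjusted p under 0.05, all higher). Without MOLM-14 3 passed as higher (3.03% of all genes), and 0 to 2 passed with any 1 array left out. The GSK-3A hairpins against the GSK-3B hairpins gave 30 members lower over the lines (17.6% of all genes), and without MOLM-14 4 lower and 9 higher (14.3% and 13.5% of all genes). Single genes moved from -1.17 in MOLM-14 to 0.36 in HL-60 (NEK2), so an average over lines does not describe NEK2 in either.

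**Figure D4:**
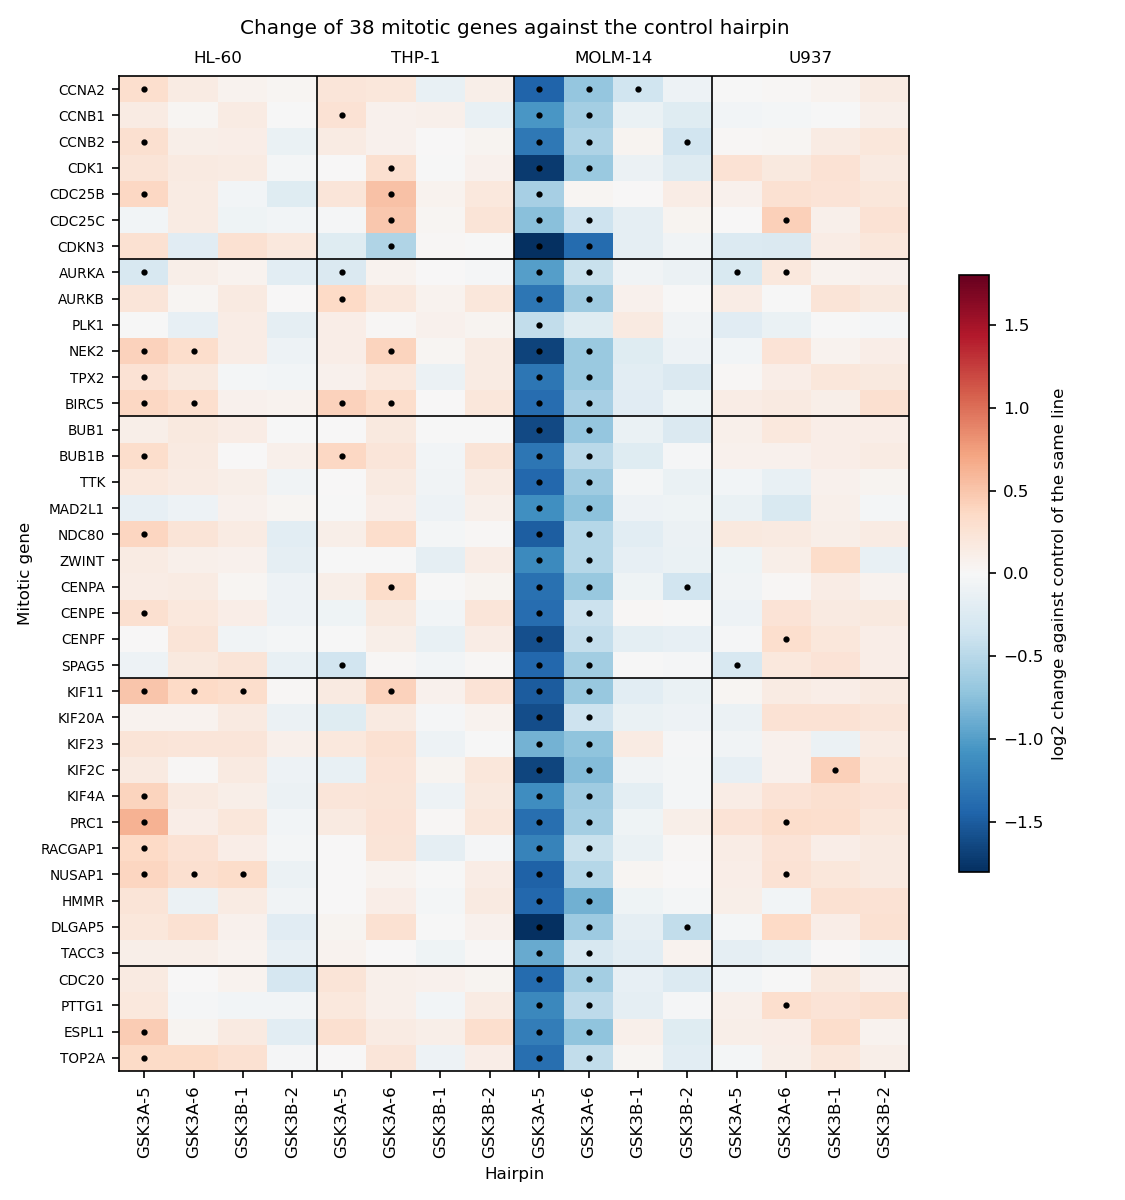
Change of 38 mitotic genes (rows, grouped as cyclins and CDK1, kinases, checkpoint and kinetochore, motors and cytokinesis, exit and chromosomes) for each hairpin in each line (columns), in log2 units against the control of the line; dots mark an adjusted p under 0.05. The dark blue columns are MOLM-14 with GSK-3A hairpins 5 and 6, with 38 and 36 dots, and the pale red cells of HL-60 hairpin 5 hold 16 dots for genes that rose and 1 for AURKA, which fell.

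In HL-60 the GSK-3A hairpins raised 15 of the 38 genes and lowered none past the test (median 0.18, against 9.45% of all genes higher). All 15 were lower in MOLM-14, which follows from all 38 being lower there and adds no further evidence. Of all 12165 genes 93 (0.764%) were higher in HL-60 and lower in MOLM-14. The 4 GSK-3A arrays lay above the 3 controls for 22 members, against 9.93% of all genes. The risen genes spread over all roles: CCNB2 and CDC25B, NEK2, TPX2 and BIRC5, BUB1B, NDC80 and CENPE, KIF11, KIF4A, PRC1, RACGAP1 and NUSAP1, and ESPL1 and TOP2A.

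KIF11 rose most in HL-60. Its controls read 354, 321 and 333, hairpin 5 read 471 and 494 and hairpin 6 read 439 and 433, all above the controls, a change of 0.43 ± 0.076 on the log2 scale (adjusted p = 0.000179). The PRC1 controls read 422, 463 and 439.9, with 670.4 and 717 for hairpin 5 and 479 and 483 for hairpin 6. Both hairpins exceeded the controls, hairpin 5 by far the more, and the mean change was 0.37 ± 0.076 on the log2 scale (adjusted p = 0.000756). TOP2A read 1637, 1549 and 1547 on the controls, 2033 and 1979.8 with hairpin 5 and 2043 and 1979.8 with hairpin 6, here with similar hairpins (0.35 ± 0.098, adjusted p = 0.0124). BIRC5 read 391, 419 and 408 on the controls against 523, 546, 512 and 507, also without overlap (0.34 ± 0.082, adjusted p = 0.00398). The NEK2 controls read 172, 200.1 and 186 and the hairpin arrays 259.6, 243, 231 and 238 (0.36 ± 0.082, adjusted p = 0.00231).

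CDK1 and CCNB1, which fell clearly in MOLM-14, were not among the genes past the test in HL-60. CDK1 read 1034, 1036 and 1048 on the controls and 1235, 1203, 1172 and 1139 with the GSK-3A hairpins, without overlap, yet its change of 0.19 ± 0.075 had an adjusted p of 0.0762. CCNB1 changed by 0.091 ± 0.068, with a 95% interval of -0.05 to 0.23. MAD2L1 and AURKA stood at -0.12 ± 0.086 and -0.09 ± 0.053, neither past the test.

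The HL-60 count was sensitive to arrays and to the block. Within plate columns the medians were 0.19 and 0.15. Leaving out control replicate 3 left 5 genes and control replicate 2 left 7. Leaving out hairpin 5 replicate 1 or hairpin 6 replicate 1 left 8, and hairpin 6 replicate 2 left 9. On control replicate 2 the 3′ to 5′ ratio was 3.12 for ACTB, against 1.75 to 2.14 on the other HL-60 arrays. For GAPDH it was 1.32, against 1.08 to 1.22. The part of RNA quality in these counts was not tested. A fit of the 4 lines with no column block called 0 members in HL-60, THP-1 and U937 and 34 in MOLM-14 with the GSK-3A hairpins. Among all genes that fit called 1097 in HL-60, 245 in THP-1, 818 in U937 and 1938 in MOLM-14, in either direction. Calls among all genes thus remained in the lines where the member calls were lost. The shared spread of that fit takes in the column differences of the other lines. The HL-60 arrays fitted alone called 18 with the block or without it, among them all 15 (10.1% and 10.4% of all genes).

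The HL-60 hairpins differed for some genes. Hairpin 5 raised 16 members and lowered AURKA (against 11.1% higher and 11.6% lower of all genes), and hairpin 6 raised 4, NEK2, BIRC5, KIF11 and NUSAP1 (against 6.08%). AURKA read 784, 811 and 765 on the controls, 644 and 641 with hairpin 5 and 843 and 846 with hairpin 6. It was thus below the controls with hairpin 5 and above them with hairpin 6, a difference of -0.39 ± 0.068 on the log2 scale (adjusted p = 0.000205), against 8.41% of all genes lower. CDKN3, PRC1, HMMR and ESPL1 were higher with hairpin 5 than with hairpin 6 (against 8.41% of all genes). AURKA was also lower with hairpin 5 than with hairpin 6 in THP-1 (-0.33) and U937 (-0.46), as was SPAG5 in those lines (-0.36 and -0.48). In each of these lines 5 members were lower with hairpin 5, KIF20A and CDC25C among them in both, against 5.6% and 4.27% of all genes.

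The GSK-3B hairpins in HL-60 also differed from each other. Hairpin 1 was higher than hairpin 2 for 7 members (median of the 38 0.21, against 8.42% of all genes). Hairpin 1 raised KIF11 and NUSAP1 above control (0.32 ± 0.091 and 0.34 ± 0.088), 2 of 38 members, a share near the 4.12% of all genes. The GSK-3A hairpins raised both too, but against the same 3 control arrays, so these calls are not independent. The mean of both GSK-3B hairpins moved no member past the test, against 1.68% of all genes higher after adjustment (2 members had an unadjusted p under 0.05). The GSK-3A hairpins against the GSK-3B hairpins gave 14 members higher in HL-60 (against 9.97%), and 8 to 9 with any 1 of 4 arrays left out: GSK-3B hairpin 1 replicate 1, GSK-3B hairpin 2 replicate 1, GSK-3A hairpin 5 replicate 1 and GSK-3A hairpin 6 replicate 2.

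In THP-1 5 genes rose and CDKN3 fell with the GSK-3A hairpins (median 0.14, against 3.86% higher and 3.61% lower of all genes). CDC25B read 78.0, 76.3 and 69.9 on the controls and 85.1, 92.2, 127 and 101 with the hairpins, all above (0.37 ± 0.082, adjusted p = 0.00583). BIRC5 read 286, 334 and 324 against 407, 450.5, 377 and 426, also without overlap (0.36 ± 0.082, adjusted p = 0.00629). BUB1B, KIF11 and AURKB rose by 0.30, 0.29 and 0.27. CDKN3 read 564, 583 and 574 on the controls, 486 and 493 with hairpin 5 and 388 and 392 with hairpin 6, so that the gene that fell most in MOLM-14 was also below every control array here (-0.38 ± 0.096, adjusted p = 0.015). In THP-1 the 4 hairpin arrays exceeded the controls for 13 members, against 7.04% of all genes.

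The THP-1 calls were few and moved with single arrays. Without control replicate 3 none of the 5 rises passed, without hairpin 6 replicate 1 2 did, and without control replicate 1, hairpin 5 replicate 1 or hairpin 5 replicate 2 3 did. The CDKN3 call was lost without control replicate 2 or 3, hairpin 5 replicate 1 or hairpin 6 replicate 1. By hairpin, CCNB1, AURKB, BIRC5 and BUB1B were higher and AURKA and SPAG5 lower with hairpin 5 (4.61% and 4.21% of all genes), and CDK1, CDC25B, CDC25C, NEK2, BIRC5, CENPA and KIF11 were higher and CDKN3 lower with hairpin 6 (4.18% and 4.56%). BIRC5 alone rose with both, which share the same control arrays. With the GSK-3B hairpins none of the 38 passed in THP-1, against 0.0575% of all genes higher after adjustment (2 members had an unadjusted p under 0.05). Against the GSK-3B hairpins, the GSK-3A hairpins gave CDC25B and BIRC5 higher and CDKN3 lower in THP-1 (3.94% and 3.95% of all genes). The 2 higher calls fell to 0 or 1 when any array but control replicate 2 was left out.

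In U937 the arrays separated by plate column more than by hairpin. The 3 CDK1 controls read 869, 873 and 629, the last being the column 7 array, while hairpin 5 read 1040.3 and 775 and hairpin 6 1070.3 and 668, each with the column 7 to 11 array lower. CCNB1 showed it more strongly, with controls at 919.5, 863 and 512, hairpin 5 at 877 and 481 and hairpin 6 at 928 and 467. With the columns as a block, CDK1 (0.22 ± 0.075, adjusted p = 0.0484) and PRC1 (0.28 ± 0.076, adjusted p = 0.0116) were higher with the GSK-3A hairpins, against 8.11% of all genes, and for no member did all 4 hairpin arrays lie above the controls (5.23% of all genes).

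The U937 changes were not the same in both column sets. The median of the 38 changes was 0.16 in columns 1 to 6, where 13 members passed the test as higher, against 7.69% of all genes, and -0.03 in columns 7 to 11, where 1 array per group allows no test. GSK-3A against GSK-3B hairpins gave 0.09 in columns 1 to 6 and -0.27 in columns 7 to 11, so the sign differed. The calls of CDK1 and PRC1 were lost without either control of columns 1 to 6, or without the columns 1 to 6 array of hairpin 5 or of hairpin 6, and without hairpin 6 replicate 2 10 members passed. Hairpin 5 lowered AURKA and SPAG5 (6.15% of all genes) and hairpin 6 raised CDC25C, AURKA, CENPF, PRC1, NUSAP1 and PTTG1 (7.36%). With the GSK-3B hairpins KIF2C was higher (0.31 ± 0.075, adjusted p = 0.0373, against 0.871% of all genes), a call that went without either control of columns 1 to 6 and without the replicate 2 array of either GSK-3B hairpin, while 2 members passed without the replicate 1 array of either. GSK-3A against GSK-3B hairpins gave 4 members lower in U937 (against 7.41% of all genes), 11 without GSK-3A hairpin 6 replicate 1, and 2 without the replicate 2 array of any of the 4 hairpins.

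**Figure D5:**
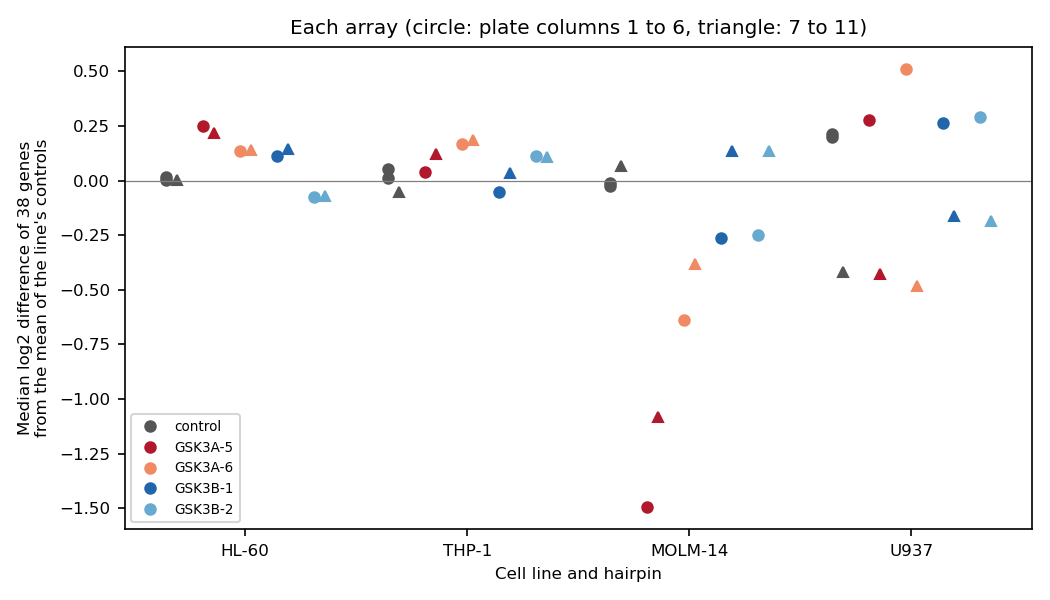
Median over the 38 mitotic genes of the log2 difference between an array and the mean of the controls of its line, for every array; circles are plate columns 1 to 6, triangles columns 7 to 11, and colours are hairpins. The 4 GSK-3A arrays of MOLM-14 lie between -1.50 and -0.38, while the U937 arrays separate by plate column, all circles above 0 and all triangles below it.

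Control levels differed between the lines for all 38 genes by the F-test, as for 70.7% of all genes, with the plate row inseparable from the line. With the column block in the fit, the control levels compared here are those fitted for plate columns 1 to 6. MOLM-14 controls were lower than U937 controls for 32 members and higher for 4 (median -0.85, against 25.8% and 24.3% of all genes). HL-60 was higher than MOLM-14 for 28 and lower for 2 (median 0.54, against 27.7% and 21%), and THP-1 higher for 24 and lower for 4 (median 0.42, against 25.8% and 24.2%). Against each of the other lines, most members that differed were lower in the MOLM-14 controls at the level of columns 1 to 6. In columns 7 to 11 the members were lower in U937 (median -0.64) and mostly higher in MOLM-14 (median 0.28). These shifts run against the gap between MOLM-14 and U937, and together they are about as large as its median of -0.85. Control levels in columns 7 to 11 were not tested, so the lower MOLM-14 level against U937 is shown for columns 1 to 6 only. HL-60 and THP-1 differed for 14 upward and 10 downward (median 0.065, against 29.9% and 25.1%).

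The order of the lines was not the same for every gene. CDC20 controls averaged 2604 ± 94.9 (SD, n = 3) in THP-1, 1099 ± 40.7 in HL-60, 1035 ± 301 in U937 and 548 ± 126 in MOLM-14, and HL-60 and U937 did not differ beyond their spread. CDC25B controls averaged 309 ± 13.4 in U937, 256 ± 5.46 in HL-60, 173 ± 19.7 in MOLM-14 and 74.7 ± 4.23 in THP-1. CDK1 controls averaged 1039 ± 7.16 in HL-60, 997 ± 132 in MOLM-14, 790.2 ± 140.0 in U937 and 775 ± 64.5 in THP-1, and the HL-60 mean lay within 1 SD, 132, of the MOLM-14 mean. The SD of U937 controls takes in the difference between plate columns.

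Other genes of the cell cycle, from lists written with earlier results of these data known, were counted in the same way, against the 13.3% of all genes lower and 14.5% higher in MOLM-14. In MOLM-14 with the GSK-3A hairpins 34 of 42 further kinetochore and spindle genes fell and 1 rose (median -0.61), among them CENPU (-1.38 ± 0.076, adjusted p = 4.31e-12) and ASPM (-1.26). The 1 that rose was MAD1L1, a checkpoint protein (0.41). Of 17 condensin and cohesin genes 14 fell (median -0.51), among them SMC1A (-1.07) and NCAPD3 (-0.88). Of 48 replication and S phase genes 44 fell (median -0.88), among them POLE2 (-1.23) and RRM2 (-1.32), so genes outside mitosis were lower too. Among 12 anaphase-promoting complex genes, which are less bound to the cycle, 3 fell and 2 rose: its inhibitor FBXO5 (EMI1) fell (-1.09), as did UBE2S (-0.42), while ANAPC13 and CDC16 rose (0.24 and 0.17). The share of this list that rose is near that of all genes.

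Factors that act on mitotic promoters fell in part. Of 18 measured, 9 fell and none rose (median -0.24), with MYBL2, the MYB protein of the MuvB complex (-1.05), and E2F8, a repressor (-0.82), among those that fell. FOXM1 changed by -0.92 ± 0.093 (adjusted p = 3.45e-08). Of 11 G1 cyclins and CDK inhibitors, CDKN1A (p21) and CCND3 rose (0.68 and 0.19) and CDK4 and CDKN1B fell (-0.37 and -0.41), counts near the share of all genes in each direction. Of 16 p53 targets 10 rose and none fell (median 0.27), among them ZMAT3 (1.36) and BAX (0.55). Of 14 myeloid markers 11 rose and 1, MPO, fell (-1.28), with CD86 (1.46) and TYROBP (0.91) among those that rose. The summed intensity of these markers was 6481 to 6722 on the MOLM-14 control arrays and 7201 to 10254 on the GSK-3A arrays. Their part in the fall of the mitotic genes was not tested.

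In HL-60, where 9.45% of all genes rose and 10.4% fell, the same lists gave other counts. Of 42 further kinetochore and spindle genes 12 rose and none fell (median 0.12), PBK (0.62) and CIT (0.38) among them. Of 48 replication genes 5 rose and 4 fell (median -0.011), about the share of all genes in each direction, CCNE2 being higher (0.70) and CCNE1 lower (-0.28). Condensin and cohesin genes divided, 5 rising, SMC4 among them (0.28), and 3 falling, NCAPD3 and SMC1A among them (-0.45 and -0.34). Of 14 myeloid markers 9 rose and 1 fell in HL-60 (median 0.34), with CD14 (1.21) and CD86 (1.304) rising, beside mitotic genes that rose rather than fell. In THP-1, 0 of 48 replication genes fell and 1 rose, against 3.61% of all genes lower and 3.86% higher. In U937 10 fell and none rose, against 7.84% of all genes lower and 8.11% higher.

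Other probe sets of the same genes gave a further reading. For 14 members at least 1 further probe set names the gene alone. The brightest of these was lower in MOLM-14 with the GSK-3A hairpins for 13 of the 14, against 11.9% of all probe sets, and for CDC25C it changed by 0.051. Over all 22 further probe sets 15 were lower and none higher. The 7 that did not pass name AURKA, BUB1, CDC25C and CENPF and have mean intensities of 6.93 to 13.3. In HL-60 3 of the 14 were higher, against 8.12%.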

How the data were processed

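Affymetrix HT HG-U133A arrays measured RNA from 44 samples, with 20 groups of 4 lines and 5 constructs. The deposited values are linear intensity for 22277 probe sets, from 3.397 to 12932.76, normalized by the authors with RMA or MAS5, both of which appear in the submitters' processing notes. Versions, and which of them gave the values, were not given in the sources used here. As intensities they carry no read depth, and the number of arrays limits the precision. Here log2(intensity + 16) was quantile normalized, and 19724 probe sets naming 1 gene (568 name several, 1923 none, 62 are controls) were reduced to 12165 genes by the highest mean over all arrays. Symbols of 19707 probe sets were matched to current ones through a RefSeq table on GRCh38.p14. Intensities printed for arrays are the normalized values on the linear scale.

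Each gene was fitted with limma 3.58.1 in R 4.3.3 on 20 group means plus the plate column set (columns 1 to 6 or 7 to 11) within each line as a block, which left 20 residual degrees of freedom. Values after ± are standard errors of that fit unless called SD. P-values were adjusted by Benjamini-Hochberg over 12165 genes with a threshold of 0.05, and F-tests compared the lines. Shares of all genes passing a test are at that adjusted threshold, so they are no yardstick for member counts at an unadjusted p. The pairing by column set was checked before the fits were compared: deviations of the constructs correlated at 0.561 to 0.753 in MOLM-14 and 0.761 to 0.821 in U937, and at -0.0337 to 0.118 in HL-60 and -0.103 to 0.15 in THP-1. Of 28 pairs of replicate arrays none held identical values. The procedure was tested on simulated data. Figures were drawn with Python 3.11.15 and matplotlib 3.10.9.

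The text names the 38 measured members, by role, and for other lists the genes with clear changes in either direction, which were picked after their values were seen. The members, the lists and the contrast of MOLM-14 with the other lines were chosen with earlier results of these data known. Alternatives were other normalizations, pseudocounts, probe set rules, blocks, single lines and arrays left out.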

Additional observations from a re-analysis of the deposited data

Results flagged for a closer look

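The change with the GSK-3A hairpins differed between the cell lines for 37 of the 38 measured mitotic genes by the F-test of the interaction. Of all genes 24.9% passed that test. In the direct contrast of the MOLM-14 change with the mean change of the other 3 lines, 37 of the 38 were lower in MOLM-14. The share of all genes lower was 7.82%, and that contrast was chosen with an earlier result of these data known. Both results concern a difference between groups under the same contrast, and PLK1 was the gene outside both. Line and plate row cannot be told apart, and MOLM-14 arrays of plate columns 7 to 11 had GAPDH 3′ to 5′ ratios of 1.70 to 3.23. In columns 1 to 6, where those ratios were 0.962 to 1.00, all 38 changes in MOLM-14 were negative as well.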

How the results depend on the processing

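In MOLM-14 the fall with GSK-3A hairpins kept 32 to 38 members past the test under the alternatives run, 32 being the fit of MOLM-14 alone without the block. The main limits are 2 or 3 arrays per group, plate rows that hold 1 line each, and dim probe sets: CDC25C's other probe set gave 0.051 in MOLM-14, 0.055 with hairpin 5, 0.047 with hairpin 6 and 0.078 against the other lines. Outside MOLM-14, fits of all 4 lines lost their member calls within single lines without the block, except 1 against GSK-3B in HL-60. HL-60 and THP-1 fitted alone kept calls with or without it. Counts printed below without a number for all genes are member counts alone.

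Without the replicate block GSK-3A over the lines gave 5 lower and 0 higher, HL-60 0, THP-1 0 in either direction and U937 0, against GSK-3B 8 over the lines, 1 in HL-60 and 0 in THP-1 and U937, GSK-3B in U937 0, hairpin 6 in MOLM-14 6 and hairpin 5 minus 6 there 16. Of all genes, that fit called in either direction 2560 over the lines with GSK-3A, 1097 in HL-60, 245 in THP-1 and 818 in U937. For GSK-3A against GSK-3B these numbers were 2655, 1286, 269 and 609. With 1 plate block common to the lines the member counts were 4 lower and 0 higher, 0, 0 and 0, then 10, 1 and 0, then 0, 7 and 18. With the replicate number as block, where the numbers pair arrays only in part with the columns, they were 0 higher over the lines, 0 in HL-60, THP-1 and U937, then 19 over the lines, 6 in HL-60, 0 in THP-1 and 1 in U937, GSK-3B in U937 0 and hairpin 6 in MOLM-14 22, and in U937 CCNB2, KIF11, KIF23 and PRC1 turned to -0.31, -0.42, -0.56 and -0.057. HL-60 alone gave GSK-3B 2 without and 1 with the block (234 and 215 of all genes higher). GSK-3A against GSK-3B gave 23 in both (1321 and 1328 of all genes higher). THP-1 alone gave 13 and 6 without the block (588 and 586 of all genes higher) and 11 and 5 with it (544 and 565). U937 alone gave 0, 0 and 0 without it and 0, 0 and 2 with it, where 764 of all genes were lower for GSK-3A against GSK-3B. MOLM-14 alone without it gave 11 for hairpin 6 and 12 for hairpin 5 minus 6 (2.27% and 2.13% of all genes lower). A block in MOLM-14 and U937 only gave GSK-3B 1 over the lines and 2 in U937 (698 and 123 of all genes higher). Single-line fits and this block were chosen after seeing the data.

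Without MOLM-14 GSK-3A over the lines gave 2 lower and 22 higher, GSK-3B 3, their difference 4 and the F-test 0; without HL-60 or without THP-1 the 1 higher became 0. Columns 1 to 6 alone gave GSK-3B over the lines 3 and in MOLM-14 11, against the other lines 2, GSK-3A in THP-1 1 and in U937 13, and GSK-3A against GSK-3B 16 over the lines, 1 in THP-1 and 0 in U937. Of all genes that fit called 911, 620, 91, 453, 1713, 3148, 346 and 947 in the same order, in either direction. Columns 7 to 11 alone hold 1 array per group and gave values with no test. GSK-3B over the lines was 1 with cyclic loess, 1 with a robust trend and 3 with a mean intensity of at least 50, where GSK-3B gave 1 in MOLM-14 and 3 in U937 and THP-1 4 against GSK-3B; the robust trend gave 1 and 2. GSK-3A in U937 was 1 with median scaling, no further normalization, a pseudocount of 64 or the mean of all probe sets, which gave GSK-3B 2 in MOLM-14 and 0 in U937. A pseudocount of 1 gave GSK-3B in U937 0, and pseudocounts of 1 and 64 gave THP-1 1 against GSK-3B.

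With 1 array left out, GSK-3A ranged from 21 to 29 lower and 1 to 1 higher over the lines, 5 to 15 in HL-60, 0 to 1 lower and 0 to 5 higher in THP-1, 37 to 38 in MOLM-14 and 0 to 10 in U937. GSK-3B ranged from 0 to 2 over the lines, 0 to 0 in HL-60 and THP-1, 0 to 4 in MOLM-14 and 0 to 2 in U937. GSK-3A against GSK-3B ranged from 28 to 35 over the lines, 8 to 14 in HL-60, 1 to 1 lower and 0 to 2 higher in THP-1, 38 to 38 in MOLM-14 and 2 to 11 in U937. MOLM-14 against the other lines ranged from 37 to 38 for GSK-3A and 0 to 3 for GSK-3B, hairpin 5 from 37 to 38, hairpin 6 from 32 to 36, their difference from 33 to 36, and the F-tests from 37 to 38, 0 to 1 and 38 to 38.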
